A study of Mus musculus with 2 samples.

Results

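Pth1r, Clec11a and Itga11 are 3 of the 28006 features counted in this data set, and they were taken by matching their symbols to the feature names. Each symbol matched 1 feature. Pth1r encodes the receptor for parathyroid hormone and for parathyroid hormone-related protein, a G protein-coupled receptor that acts through Gs and cyclic AMP and through Gq. It is known in bone as the receptor through which parathyroid hormone acts on cells of the osteoblast lineage. Clec11a encodes osteolectin, a secreted protein with a C-type lectin domain that is known to promote osteogenic differentiation of marrow stromal cells, and that was first described as a growth factor for blood progenitors. Itga11 encodes integrin α11, a collagen-binding subunit that pairs with integrin β1, and this pair is known as a receptor for osteolectin upstream of Wnt signaling.

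Femur cells of 2 mice aged 28 postnatal days, given tamoxifen on postnatal day 21, were sequenced as 1 single-cell library per mouse. Both mice had the genotype Cxcl12(GFP/+); Cxcl12-iCreER; R26R(tdTomato/+), so both carried 1 Cxcl12 allele replaced by GFP, a tamoxifen-dependent Cre driven by a Cxcl12 bacterial artificial chromosome transgene, and a tdTomato reporter. The mice formed 1 group, and every comparison below is between classes of cells within the same animals. The labels disagree on the sort: the protocol speaks of tdTomato+ cells, but GFP+ cells are named as the sample and in the design.

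The libraries held 54940400 UMIs (Mouse #1) and 88790688 UMIs (Mouse #2), a UMI being a tag that lets 1 captured transcript be counted once. A barcode was kept as a cell from 1000 detected genes and up to a mitochondrial share of 15%, which left 2750 and 4582 cells with medians of 12966.5 and 12190 UMIs. A total of 7 cell barcodes occurred in both libraries. Clusters were named here from marker genes as reticular-like (1250 and 2426 cells; Adipoq, Lpl and Hp among the markers), preosteoblast-like (410 and 780; Alpl, Mmp13 and Ibsp), osteoblast-like (13 and 61; Bglap2, Ifitm5 and Dmp1), periosteal-like (77 and 236; Clec3b, Mfap5 and Aspn) and endothelial-like (152 and 139; Pecam1, Cdh5 and Kdr). Names were rebuilt here, and markers of the endothelial and blood types were present in a sort for GFP. Blood cells formed 8 further classes with 716 and 708 cells in all, and 2 clusters stayed unnamed. The members were not among the genes used for clustering. GFP UMIs were highest in the reticular-like class (12796 and 12494), and blood cells, 26% and 15.5% of all cells, held 505 and 818. CPM is the number of UMIs of a gene per 1000000 UMIs of the class.

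Pth1r lies on chromosome 9 (GRCm38, 110722085 to 110747145, minus strand) and its span overlaps Myl3 on the opposite strand. Clec11a lies on chromosome 7 (44302687 to 44306902, minus strand) and Itga11 on chromosome 9 (62677826 to 62783982, plus strand), and neither span overlaps another annotated gene. The promoter windows of RefSeq (GRCm38.p6), which run from 250 bases before a transcript start to 50 bases after it, are shown because Pth1r and Clec11a were both raised in preosteoblast-like cells and Pth1r has 3 annotated starts. Reads from the 3′ end of transcripts do not tell these starts apart. Capitals mark matches, on either strand, to a GC box (GGGCGG), the cyclic AMP response element (TGACGTCA), its core (TGACG), a RUNX site (TGTGGT), a TCF/LEF site (CTTTGA) or a TATA box (TATAAA). The full cyclic AMP response element contains its core.
Pth1r, first start, chr9:110747096-110747395: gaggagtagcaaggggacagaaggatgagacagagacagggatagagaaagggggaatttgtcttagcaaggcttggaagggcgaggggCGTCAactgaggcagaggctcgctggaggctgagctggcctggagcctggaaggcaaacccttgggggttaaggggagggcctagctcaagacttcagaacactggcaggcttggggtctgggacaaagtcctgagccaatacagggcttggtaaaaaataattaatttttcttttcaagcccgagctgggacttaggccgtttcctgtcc
Pth1r, last start, chr9:110742561-110742860: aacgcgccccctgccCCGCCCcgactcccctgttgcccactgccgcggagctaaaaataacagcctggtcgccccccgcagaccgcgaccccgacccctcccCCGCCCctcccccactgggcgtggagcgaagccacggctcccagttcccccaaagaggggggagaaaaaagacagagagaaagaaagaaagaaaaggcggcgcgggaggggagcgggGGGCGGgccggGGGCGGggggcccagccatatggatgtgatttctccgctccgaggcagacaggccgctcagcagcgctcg
Clec11a, chr7:44306910-44307209: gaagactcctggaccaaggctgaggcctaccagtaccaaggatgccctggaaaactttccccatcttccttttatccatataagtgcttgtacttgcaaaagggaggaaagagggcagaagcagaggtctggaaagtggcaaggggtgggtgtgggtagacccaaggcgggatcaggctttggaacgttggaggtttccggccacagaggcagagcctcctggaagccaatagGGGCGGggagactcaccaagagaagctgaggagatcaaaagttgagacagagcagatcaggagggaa
Itga11, chr9:62677605-62677904: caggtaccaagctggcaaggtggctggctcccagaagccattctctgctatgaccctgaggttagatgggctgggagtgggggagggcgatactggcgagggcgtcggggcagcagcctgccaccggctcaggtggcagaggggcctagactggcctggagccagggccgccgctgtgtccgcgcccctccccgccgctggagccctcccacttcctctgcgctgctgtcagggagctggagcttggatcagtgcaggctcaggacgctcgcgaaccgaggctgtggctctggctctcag

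The windows of the members differed in base composition and in these letters. The Pth1r window at the first start held 1 such core and no GC box, at 54.3% GC, while the window at the last start held 4 GC boxes at 69.3% GC. The middle Pth1r window (chr9:110743637-110743936) held 1 GC box at 68.0% GC. The Clec11a window held 1 GC box at 54.0% GC, and the Itga11 window held none of the 6 motifs at 68.0% GC. Over all 32851 promoter windows the median was 52.7% GC. A GC box was found in 35.7% of all windows, the core in 20.8%, the RUNX letters in 16.8%, the TCF/LEF letters in 16%, the TATA letters in 13.6% and the full element in 1.79%. No member window held the full element, the RUNX, the TCF/LEF or the TATA letters.

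Pth1r was highest in the osteoblast-like and preosteoblast-like classes. Summed over cells, Pth1r reached 734 CPM in osteoblast-like cells of Mouse #1 and 633 in Mouse #2. In preosteoblast-like cells the levels were 472 and 501 (mean 486 ± 20.5, SD, n = 2), from 3369 and 7245 UMIs. The periosteal-like class followed with 143 and 128, and the reticular-like class with 136 and 114. Endothelial-like cells held 24.3 and 47.9, and all blood cells together 10.2 and 22.9. The values of the osteoblast-like class lay above those of the preosteoblast-like class in both mice, and those in turn lay above the periosteal-like and reticular-like classes, whose ranges overlapped. GFP in the 13 and 61 osteoblast-like cells was at 54.6 and 228 CPM, below that of all blood cells (505 and 818). In preosteoblast-like cells GFP was at 5376 and 3192. How the osteoblast-like cells entered the sort was not tested.

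Clec11a had another order. It was highest in periosteal-like cells, at 416 and 378 CPM, and in preosteoblast-like cells, at 326 and 383, and these ranges overlapped. Osteoblast-like cells held 148 and 121, and reticular-like cells 101 and 96.8. Endothelial-like cells held 19.2 and 19.9, and all blood cells 8.97 and 16.6. The osteoblast-like class, highest for Pth1r, was thus not highest for Clec11a, with values below both the periosteal-like and the preosteoblast-like class in each mouse.

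Itga11 covered a narrower range among the stromal classes. Its levels were 59.4 and 84.3 CPM in periosteal-like cells, 62.5 and 70.6 in preosteoblast-like cells, 46.2 and 41.6 in reticular-like cells and 23.4 and 38.3 in osteoblast-like cells. The periosteal-like and preosteoblast-like ranges overlapped, and the reticular-like values lay below both. Endothelial-like cells held 5.06 and 5.10, each from 10 UMIs, and all blood cells 3.70 and 6.07.

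**Figure D1:**
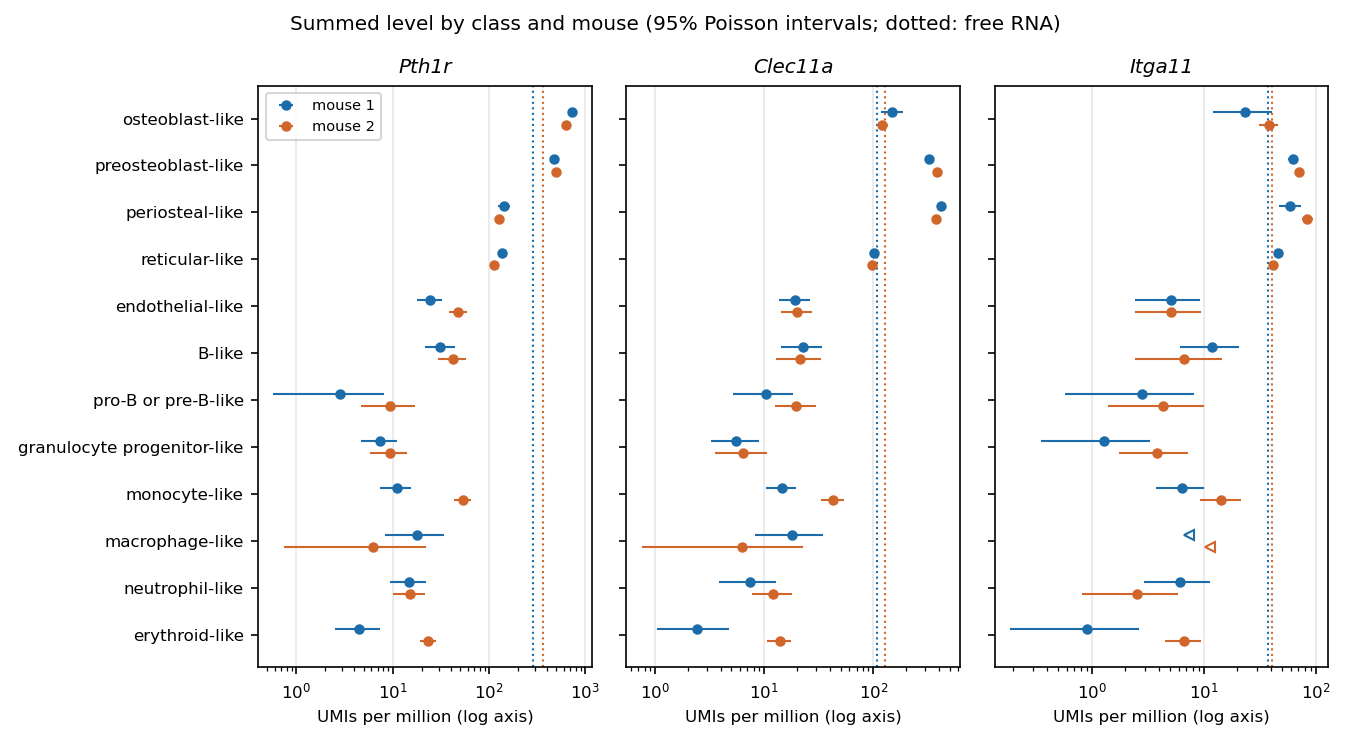
CPM of Pth1r, Clec11a and Itga11 (log axis) in each class, with 1 point per mouse and its exact 95% Poisson interval, which covers counting error only; dotted lines give the level in barcodes of 1 to 100 UMIs, and open triangles the upper limit where no UMI was counted. The stromal classes sit above the endothelial-like and blood classes for all 3 genes, and Clec11a peaks in periosteal-like (416 and 378) and preosteoblast-like (326 and 383) cells.

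The first comparison set preosteoblast-like against reticular-like cells, the main stromal classes of this sort. UMIs were summed per mouse and class, and the sums were tested with edgeR's quasi-likelihood test with Benjamini-Hochberg adjustment over 12726 genes, in a fit of 11 classes. Pth1r was higher in preosteoblast-like cells by 1.87 on the log2 scale (SE 0.465, 3.66-fold, adjusted p = 0.0115), with 1.69 in Mouse #1 and 2.05 in Mouse #2. Clec11a was higher by 1.76 (SE 0.365, 3.38-fold, adjusted p = 0.00354), with 1.59 and 1.90 in the mice. Itga11 differed by 0.51 (SE 0.317, adjusted p = 0.339), with a 95% interval of -0.16 to 1.18 and values of 0.33 and 0.68 in the mice. So 2 of the 3 members passed, where 15% of all genes tested did in either direction. With only these 2 classes in the fit, Itga11 also passed, at 0.55 (adjusted p = 0.0156), and the count of genes called rose from 1903 to 3759.

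Periosteal-like cells differed from preosteoblast-like cells in Pth1r but not measurably in its companions. Pth1r was lower in periosteal-like cells, with a log2 difference of -1.78 (SE 0.475, edgeR adjusted p = 0.0201) and values of -1.64 and -1.91 in the mice. Clec11a differed by 0.23 (95% interval -0.53 to 0.98, adjusted p = 0.749) and Itga11 by 0.20 (-0.50 to 0.91, adjusted p = 0.762). In this contrast 13.1% of all genes passed. The Pth1r call was lost without the cells of highest doublet score (-1.78, adjusted p = 0.0512) and with DESeq2 (-1.66, adjusted p = 0.0921).

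Against reticular-like cells, periosteal-like cells were higher in Clec11a. The log2 difference was 1.98 (SE 0.37, 3.95-fold, edgeR adjusted p = 0.00153), with 2.02 and 1.94 in the mice. Pth1r differed by 0.09 (95% interval -0.89 to 1.08, adjusted p = 0.942) and Itga11 by 0.72 (0.01 to 1.42, adjusted p = 0.178). In all, 14.1% of genes passed in this contrast. Itga11 passed without the filter on low counts (0.67, adjusted p = 0.0433) and with only these classes in the fit (0.83, adjusted p = 0.0161). For Pth1r the periosteal-like class thus stood near the reticular-like class, and for Clec11a near the preosteoblast-like class.

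The osteoblast-like class had 13 cells in Mouse #1, under the minimum of 20 per mouse, and it was tested only in a fit that lowered the minimum to 10, a choice made after seeing the data. Pth1r was higher there than in preosteoblast-like cells by 1.18 on the log2 scale (95% interval 0.19 to 2.17), with an edgeR adjusted p of 0.0741, and 0.0375 with the mouse as a replicate block. Clec11a differed by -0.72 in this contrast (adjusted p = 0.173) and Itga11 by -0.26 (adjusted p = 0.679), where 25.4% of genes passed. Against periosteal-like cells, Pth1r was higher by 2.96 (adjusted p = 2.37e-04), while Clec11a differed by -0.95 (adjusted p = 0.0661, and 0.0333 with the block) and Itga11 by -0.46 (adjusted p = 0.421), where 29.8% passed. Against reticular-like cells, Pth1r was higher by 3.05 (adjusted p = 1.08e-04) and Clec11a by 1.03 (adjusted p = 0.0375), while Itga11 differed by 0.25 (adjusted p = 0.667), where 36.4% passed.

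**Figure D2:**
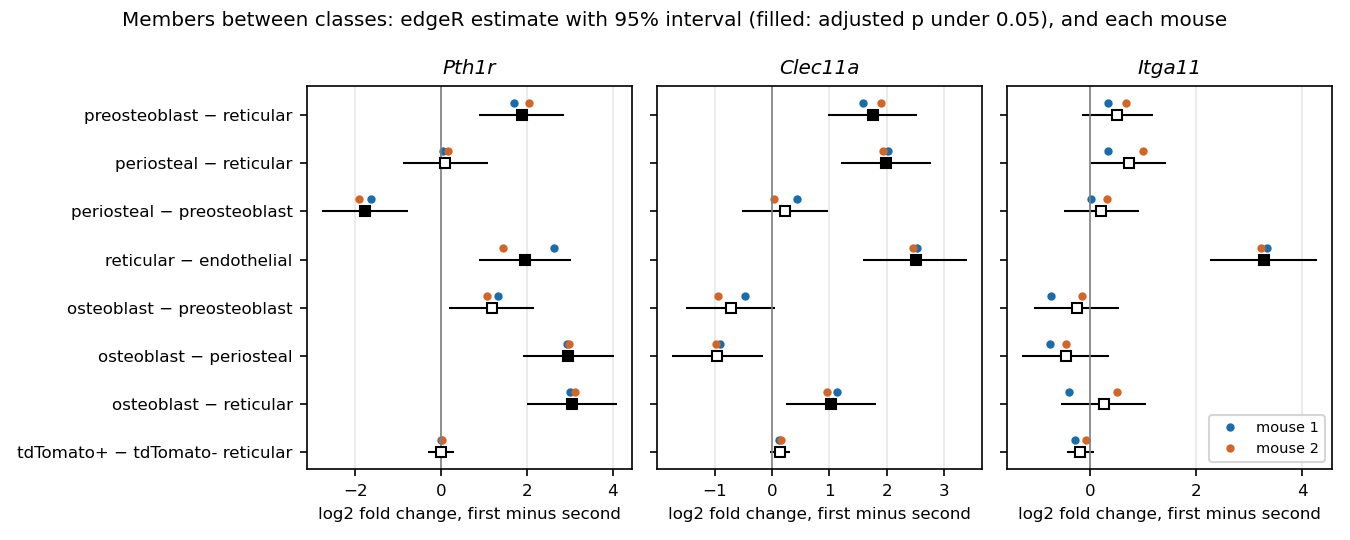
Log2 fold change of each member between classes (first minus second), as the edgeR estimate with its 95% interval (squares, filled where the adjusted p was under 0.05) and in each mouse (colored points). Pth1r and Clec11a are higher in preosteoblast-like than in reticular-like cells (1.87 and 1.76), whereas periosteal-like cells are higher than reticular-like cells in Clec11a (1.98).

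Counts per cell gave a similar order when each cell was thinned to 2000 UMIs, so that deep and shallow cells could be compared. These shares and levels of a class cover the cells of 2 animals, and tests over mice measure only the spread between these 2 libraries. At least 1 Pth1r UMI was found in 56.8% of 410 and 60.1% of 779 preosteoblast-like cells, against 24.0% of 1247 and 20.1% of 2422 reticular-like cells. Periosteal-like cells gave 28.6% and 19.6%, and blood cells 1.68% and 3.82%. Unthinned, 95.6% and 97.3% of preosteoblast-like cells and 76.5% and 68.4% of reticular-like cells held a Pth1r UMI, so most cells of both classes held the transcript at full depth. In blood cells, which serve as the background here, the unthinned shares were 9.08% and 15.8%, at medians of 12769.5 and 10621.5 UMIs against 15709 and 16742.5 in preosteoblast-like cells.

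Clec11a was found in 41.7% and 48.7% of thinned preosteoblast-like cells, 41.6% and 43.0% of periosteal-like cells and 16.0% and 14.8% of reticular-like cells. The blood shares were 1.26% and 1.98%. Itga11 was found in 14.4% and 13.5% of preosteoblast-like cells, 6.49% and 12.3% of periosteal-like cells and 8.34% and 8.05% of reticular-like cells, against 0.839% and 1.70% in blood. The Wilson intervals of Itga11 in periosteal-like cells (2.81% to 14.3% and 8.73% to 17.2%) overlapped those of reticular-like cells (6.93% to 10.0% and 7.03% to 9.20%). These intervals cover counting within a mouse and do not test the classes. With cells thinned to 4000 UMIs, the Itga11 shares were 16.9% and 25.4% in periosteal-like cells against 16.2% and 14.3% in reticular-like cells.

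**Figure D3:**
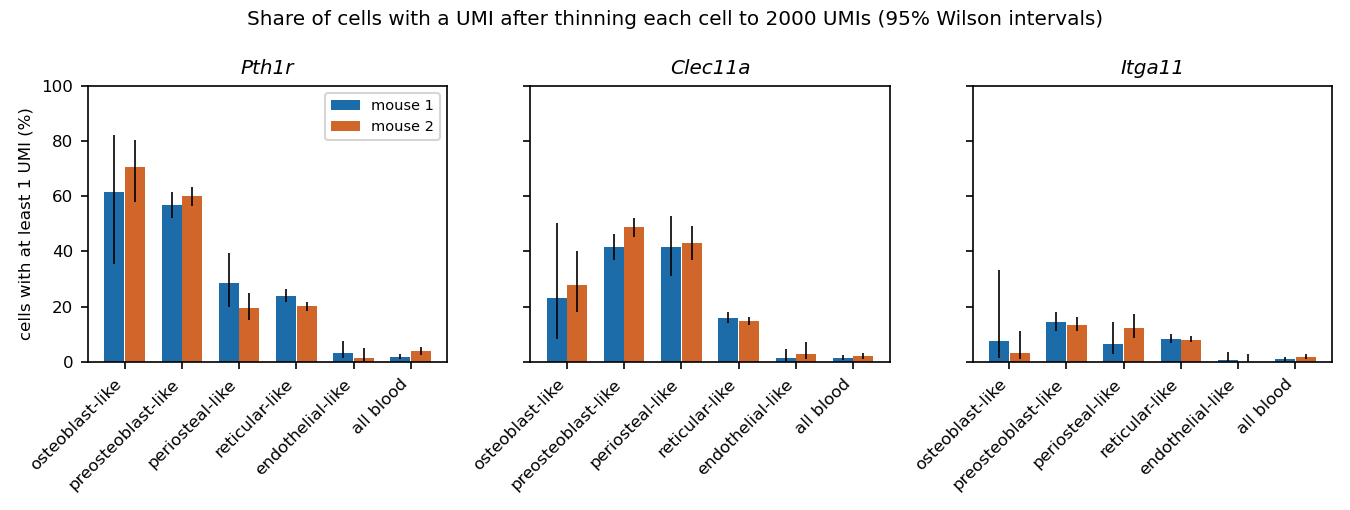
Share of cells with at least 1 UMI of each member (percent, bars from 0) after each cell was thinned to 2000 UMIs, per class and mouse, with 95% Wilson intervals. Pth1r is found in 56.8% and 60.1% of preosteoblast-like cells and Itga11 in 14.4% and 13.5% of them, while all blood cells, pooled within a mouse, stay under 4% for each gene.

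Cells that held more than 1 member were counted beside the product of the separate shares. In thinned preosteoblast-like cells, 100 cells of Mouse #1 and 236 of Mouse #2 held both Pth1r and Clec11a, where the product of the shares was 97.2 and 228. Clec11a and Itga11, the genes of the ligand and of its receptor subunit, were both found in 25 and 55 cells, against products of 24.6 and 51.1. All 3 members were found in 18 and 35 of these cells. In reticular-like cells Pth1r and Itga11 were found together in 29 and 54 cells, against products of 24.9 and 39.1, and Clec11a and Itga11 in 24 and 28, against 16.6 and 28.9. These are descriptions of cells of 2 animals, with no test.

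Within the reticular-like class Pth1r and Itga11 covered narrow ranges. The 5 clusters ranged from 111 to 166 CPM for Pth1r in Mouse #1 and from 107 to 135 in Mouse #2, and from 30.2 to 51.9 and 30.8 to 45.3 for Itga11. Clec11a was highest in a small cluster led by Cxcl9, at 193 (95% Poisson interval 132 to 273) and 172 (114 to 249), while the other clusters ranged from 84.2 to 114 and from 87.2 to 128. The Cxcl9-led cluster held 41 and 42 cells and was shallow (medians of 3572 and 3454.5 UMIs), and 1 cell gave 14 of its 32 Clec11a UMIs in Mouse #1. At a finer clustering the preosteoblast-like class split into a deeper part led by Npy and Spp1 and a shallower part. Their levels were 449.7 and 508 for Pth1r in Mouse #1 and 499.9 and 503 in Mouse #2. Clec11a was 296 and 368 in Mouse #1 and 382 and 387 in Mouse #2, so both parts stayed far above the reticular-like levels of either gene.

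The levels of the members in the 2 unnamed clusters were not parallel to each other. A cluster whose leading genes were Acta2 and the mitotic genes Anln, Ckap2 and Melk, with 65 and 81 cells, held 409.8 and 446 CPM of Pth1r and 319 and 372 of Clec11a. These values lie near those of preosteoblast-like cells, 6 of whose 8 markers it also raised. Its Itga11 levels were 19.5 (13.3 to 27.5) and 30.3 (22.8 to 39.4), below the preosteoblast-like intervals of 56.8 to 68.6 and 66.3 to 75.1. The other unnamed cluster was shallow (medians of 3534 and 2995 UMIs), with 243 and 214 for Pth1r, 28.9 and 30.3 for Clec11a and 74.2 and 64.6 for Itga11. Its median mitochondrial share, 8.72%, was the highest of all clusters. Beside the reticular-like levels, Clec11a was lower there and Pth1r and Itga11 were higher. Neither cluster entered the fits, so these differences were not tested across mice.

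**Figure D4:**
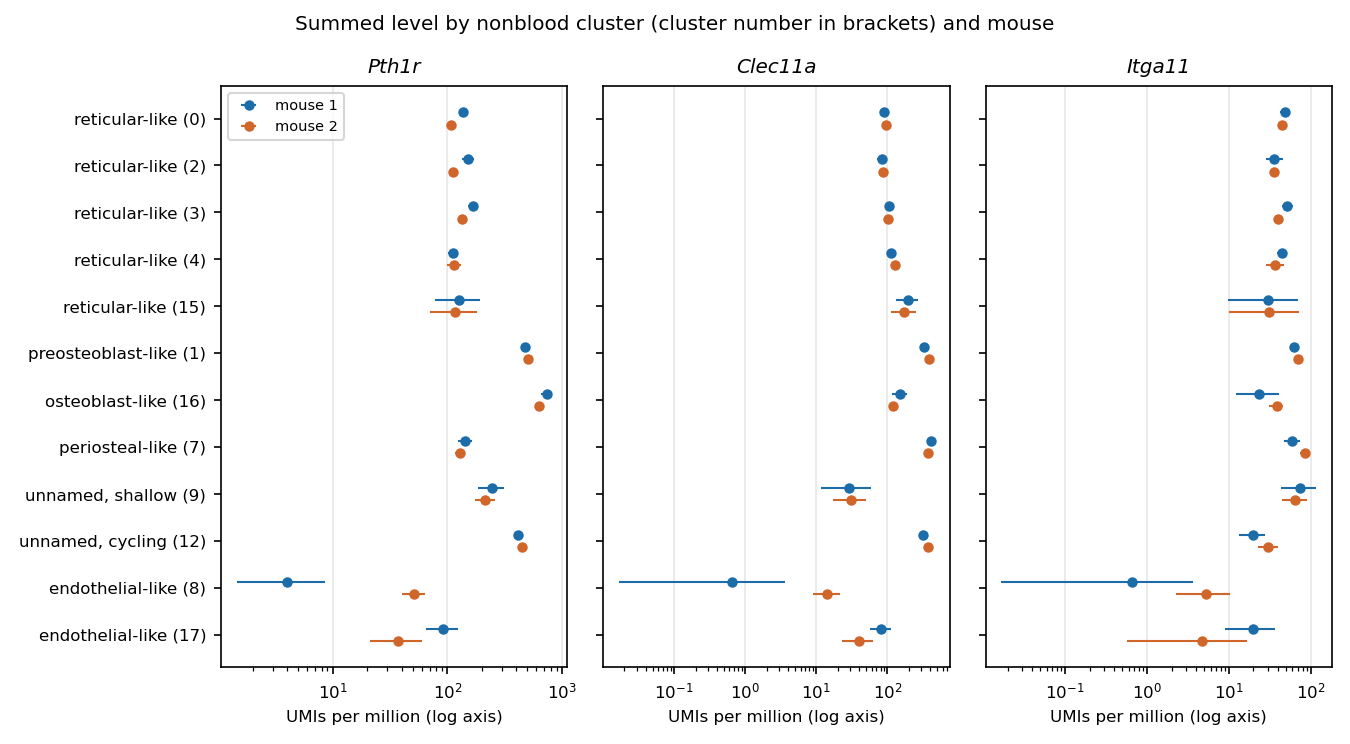
CPM of each member (log axis) in every nonblood cluster, with 1 point per mouse and its exact 95% Poisson interval; numbers in brackets are cluster numbers. The cycling cluster 12 lies near the preosteoblast-like cluster in Pth1r and Clec11a but holds less Itga11 (19.5 and 30.3 against 62.5 and 70.6).

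Endothelial-like cells held little of any member. Reticular-like cells were higher by 1.95 for Pth1r (edgeR adjusted p = 0.00542), 2.50 for Clec11a (adjusted p = 1.7e-04) and 3.27 for Itga11 (adjusted p = 4.78e-05) on the log2 scale, in a contrast where 41.2% of genes passed. Single cells weighed on the endothelial-like values. In the cluster with Gja4 and Sema3g among its leading genes, Mouse #1 held 6 Pth1r UMIs and 1 Clec11a UMI in 124 cells. Mouse #2 held 78 and 22, of which 56 and 16 were the most in any 1 cell. In the cluster with Stab2 and Flt4 among its leading genes, 1 cell gave 31 of the 37 Clec11a UMIs of Mouse #1. Without the cells of highest doublet score (by Scrublet) the endothelial-like class held 5.41 and 20 CPM of Pth1r, 3.79 and 9.09 of Clec11a, and 3.79 and 2.42 of Itga11.

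Clec11a, the member known from blood cells, was low in every blood class of this sort. Unscaled, the highest values were 14.5 and 42.7 CPM in monocyte-like cells and 22.6 and 21.1 in B-like cells. Pro-B or pre-B-like cells held 10.3 and 19.7, macrophage-like cells 18.1 and 6.20, and neutrophil-like cells 7.39 and 12.1. Granulocyte progenitor-like cells, which carry Mpo and Elane, held 5.53 and 6.36, and erythroid-like cells 2.41 and 13.8. With the TMM scaling of the test, neutrophil-like cells held 13.5 and 22.3, beside 16.8 and 16.7 in B-like cells. The order of the blood classes thus depended on the scaling. No Clec11a UMI was found in the 6 and 10 plasmacytoid dendritic-like cells, which allows up to 45.4 and 27.4 at 3 counts. The mice differed by more than the counting intervals in the monocyte-like and erythroid-like classes.

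Reticular-like cells were higher than each of 7 tested blood classes for all 3 members, by 1.91 to 3.55 on the log2 scale for Clec11a and by 2.02 to 4.41 for Pth1r, and 58.2% of gene and contrast pairs passed. Itga11 was higher by 2.21 to 3.70 against 6 of these classes. In macrophage-like cells Itga11 had no UMI in either mouse, which allows up to 6.04 and 9.30, and it passed there too (edgeR adjusted p = 4e-04) with no fold given. Among the 21 contrasts of blood classes with each other, Clec11a passed in 1, with granulocyte progenitor-like below monocyte-like cells by a log2 difference of -1.64 (SE 0.537, edgeR adjusted p = 0.0457), where 37.6% of pairs passed. This call was lost without the cells of highest doublet score (-0.62, adjusted p = 0.665), which were 9 of 95 and 24 of 70 monocyte-like cells (GFP at 252 and 2911 CPM in that class), and the direction turned at the finer clustering (0.91, adjusted p = 0.528). Between endothelial-like cells and the 7 blood classes, Clec11a and Itga11 passed in no contrast, where 49.5% of pairs passed. Pth1r passed in 1, being higher in endothelial-like than in pro-B or pre-B-like cells (2.46, edgeR adjusted p = 0.0144).

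The blood cells that held Clec11a UMIs differed from the other blood cells in depth, GFP and doublet score. Blood cells with a Clec11a UMI numbered 50 and 71, and 34.0% and 39.4% of them were among the cells of highest doublet score, against 4.47% and 6.07% of all blood cells. Their medians were 27365 and 25558 UMIs per cell, against 11360 and 9682 in the other blood cells. Their median GFP level was 3.18 and 14.1 UMIs per 10000, against 0 in the others. GFP and doublet score were not separated from depth here. Pth1r behaved alike, with 32.3% and 24.1% of its 65 and 112 positive blood cells among the highest doublet scores. A few cells carried most of the signal, as the 14 and 22 blood cells with at least 3 Clec11a UMIs gave 80 of 121 and 157 of 216.

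Without the cells of highest doublet score, Clec11a in all blood cells was 4.36 and 10.5 CPM, with 4.77 and 7.28 in B-like cells and 1.57 and 29.2 in monocyte-like cells. In barcodes of 1 to 100 UMIs, which hold free RNA, Clec11a was at 107 and 127, Pth1r at 287 and 360 and Itga11 at 37.1 and 40.5, so the blood cells as a whole lay below the free RNA for each member. The reticular-like levels of Pth1r and Clec11a and the periosteal-like levels of Pth1r also lay below it. So did the endothelial-like levels of each member and the osteoblast-like levels of Itga11 (23.4 and 38.3). Clec11a in osteoblast-like cells lay below it in Mouse #2 (121) but not in Mouse #1 (148). There were 0.883 and 0.725 Clec11a UMIs per Pth1r UMI in blood cells, 0.691 and 0.765 in preosteoblast-like cells, 0.740 and 0.850 in reticular-like cells and 0.374 and 0.354 in the free RNA. The part of doublets and of free RNA in the blood values was not tested.

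No member passed between reticular-like cells called positive and negative for tdTomato, the mark left by Cxcl12-creER. A cell was taken as tdTomato-positive above the 99th percentile of the blood cells of its mouse, which gave 498 positive and 752 negative cells in Mouse #1 and 979 and 1447 in Mouse #2. This limit was 8.71 and 14.6 UMIs per 10000. A negative cell could hold tdTomato UMIs up to it, so marked cells may be among the negative ones. Scaled levels of Pth1r were 135 and 115 in positive cells and 136 and 114 in negative cells. Clec11a was at 106 and 103 against 96.9 and 92.8, and Itga11 at 40.6 and 40.2 against 49.6 and 42.8. The log2 differences were -0.00 for Pth1r (95% interval -0.31 to 0.30), 0.14 for Clec11a (-0.04 to 0.32) and -0.19 for Itga11 (-0.45 to 0.07), with edgeR adjusted p of 1, 0.993 and 0.993. A Clec11a difference of up to 0.32 lies within its interval. Of 12184 genes, 0% passed in edgeR, 462 had an unadjusted p under 0.05, and 604 passed with the mouse as a replicate block, where the members had adjusted p of 0.993, 0.162 and 0.208. The test without the block called no gene at all, so its adjusted p say little about the members.

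The ligands and partners of the receptor were read in the preosteoblast-like against reticular-like contrast, from lists written with earlier results of these data known. Levels of genes other than the members are given in CPM scaled by TMM, as in the test. Of 12 measured genes that encode ligands, related receptors and partners, 9 were tested, of which 3 were higher and 2 lower in preosteoblast-like cells, beside 15% of all genes called in either direction, with a median log2 difference of 0.01 beside -0.02 over all genes. Pthlh, the gene of parathyroid hormone-related protein, was higher (4.01, edgeR adjusted p = 0.0177), at only 0.588 and 7.06 CPM against 0 and 0.427. It was at 30.2 and 115 in periosteal-like cells. Pth itself was below the filter. Ramp1 was higher (3.08, adjusted p = 3.41e-04) and Ramp2 lower (-2.43, adjusted p = 0.00906), both encoding small membrane partners of class B receptors, and Ramp3 was higher (2.56, adjusted p = 0.0431) at under 5 CPM.

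Downstream of the receptor, 29 genes of Gs, Gq and cyclic AMP signaling were tested, of which 2 were higher and 5 lower, beside 15% of all genes called in either direction. Their log2 differences ran from -1.51 to 2.99, with a median of -0.10. The adenylyl cyclase gene Adcy5 was higher (2.99, edgeR adjusted p = 8.29e-04), from 1.04 and 1.01 to 8.12 and 8.14 CPM. Plcb4, a phospholipase C downstream of Gq, was higher by 2.35 (adjusted p = 0.00291), at only 1.65 and 2.78 CPM against 0.494 and 0.427. The salt-inducible kinase gene Sik1 was lower (-1.51, adjusted p = 1.14e-04), as was Adcy2 (-1.30, adjusted p = 0.0187).

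Of 15 tested genes known to respond to parathyroid hormone or cyclic AMP, 2 were higher and 6 lower in preosteoblast-like cells, with a median of -0.78, where 6.95% of all genes were higher and 8% lower. The list was not split into genes that rise and genes that fall in the response, so these counts do not give its strength. The reticular-like class holds 2 clusters whose leading genes include the stress genes Hspa1a and Hspb1 or the immediate early genes Fos and Egr1. Without the cells of these clusters, an alternative chosen after seeing the data, 2 of the response genes were higher and 3 lower, with a median of -0.44. Mef2c, a transcription factor, was higher (2.35, edgeR adjusted p = 2.96e-04), as was the collagenase gene Mmp13 (2.09, adjusted p = 0.0247), which also served to name the class. Bmp4 was lower (-1.99, adjusted p = 0.00852), at 74.5 and 52.4 CPM against 266 and 238, and Il6 was lower (-1.97, adjusted p = 0.0222). Tnfsf11, which encodes the osteoclast factor RANKL and was named after its values were seen, was at 178 and 155 against 464 and 690 (-1.79, adjusted p = 0.0331).

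On the side of the osteolectin receptor, 9 collagen-binding integrin and collagen genes were tested, of which 1 was higher and 1 lower, beside 15% of all genes, with a median of 0.02. Itga10, which encodes another collagen-binding α subunit, was higher (3.77, edgeR adjusted p = 9.54e-05), at 18.7 and 18.8 CPM against 1.37 and 1.37, and Itga1 was lower (-1.13, adjusted p = 0.013). Itgb1, the partner of every α subunit in the list, was at 498 and 453 against 602 and 662 (-0.41, adjusted p = 0.14). Of 14 focal adhesion adaptor genes 1 passed, beside 15% of all genes, and this was Tns1, which was lower (-2.23, adjusted p = 4.09e-05). Of 13 tested Wnt and osteoblast response genes, 8 were higher and none lower, beside 15% of all genes called in either direction, with a median of 1.82, among them Postn (5.66, adjusted p = 3.71e-05), Bglap (4.93, adjusted p = 0.00387), Lef1 (4.75, adjusted p = 6.81e-06) and Alpl (4.47, adjusted p = 6.27e-05). Alpl was also among the raised markers that named the class, and Bglap was on that marker list without being counted as raised. With the mouse as a block, Gsk3b, a kinase that acts against β-catenin, was lower by the test (-0.43, edgeR adjusted p = 0.0432, against 0.0906 without the block), so that 8 were higher and 1 lower.

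**Figure D5:**
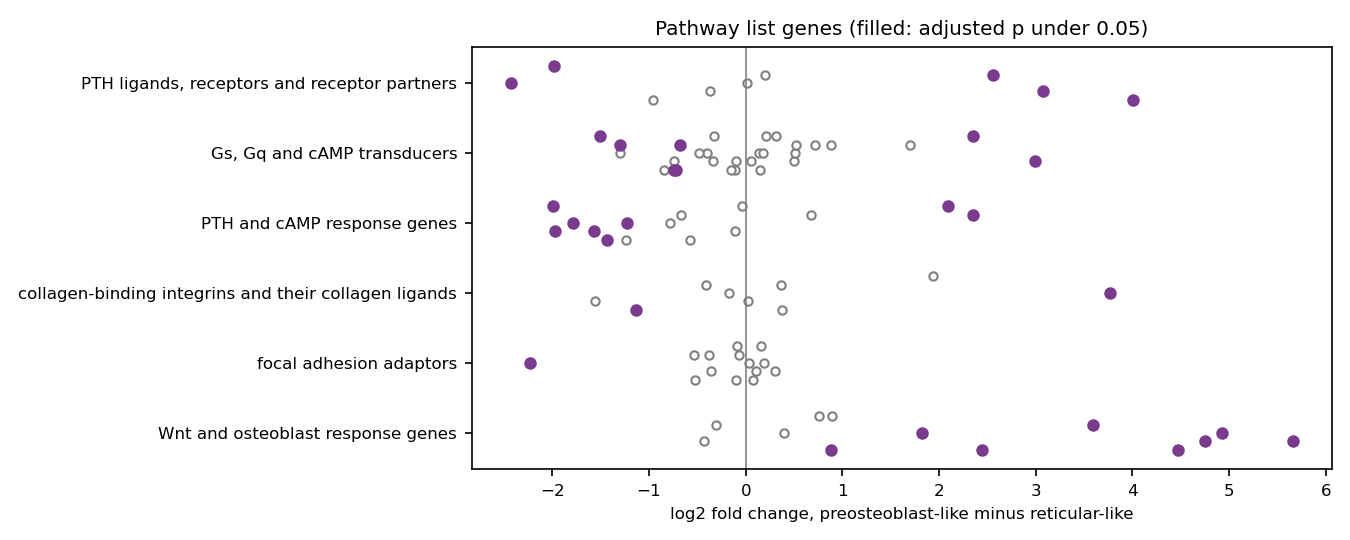
Log2 fold change, preosteoblast-like minus reticular-like, of each tested gene (1 point per gene) in 6 pathway lists, filled where the edgeR adjusted p was under 0.05. The Wnt and osteoblast response genes that passed all lie to the right, while 6 of the 8 called response genes of parathyroid hormone and cyclic AMP lie to the left. The latter list was not split by the direction of the response.

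Genes outside these lists with the most similar profile across the 11 named classes were sought among 6097 genes, by the lower of the 2 mice's Pearson correlations of log2(CPM + 1). For Pth1r they were Plagl1 (0.975 and 0.973), Tpm1, Fap, Sdc2 and Dpysl3. For Clec11a they were Gxylt2 (0.969 and 0.973), Ccdc80, Mfap2, Bmp1 and Ptprs, of which Bmp1 encodes a procollagen proteinase and Mfap2 a microfibril protein. For Itga11 they were Fibin (0.942 and 0.939), Col8a1, Ak1, Fkbp14 and Scara3. Between members the correlations were 0.914 and 0.907 for Pth1r with Clec11a, 0.856 and 0.903 for Pth1r with Itga11, and 0.865 and 0.947 for Clec11a with Itga11. The 11 points of a mouse come from 1 library, and 7 of them are blood classes at low levels, so these values describe the split of stroma from the other classes.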

How the data were processed

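Single-cell 3′ libraries (10x v3) of sorted femur cells from 2 mice were used. The authors deposited raw UMI counts per feature and barcode, made with Cell Ranger 3.0.0 per the file headers against mm10 with 8 added reporter features, without a filter for cells, and replicates were not pooled. The annotation release was not given in the sources used here. Cells passed the limits of the study (1000 genes, 15% mitochondrial UMIs). They were clustered on 2000 variable genes and 30 components with leidenalg 0.10.2 at resolution 0.5, leaving out the members and listed genes. Marker and pathway lists were copied from an earlier analysis or written here, and members and lists were chosen with earlier results of these data known. The scoring rule that named clusters (markers raised 1.5 times in at least 10% of cells, at least 3 of them) was set after seeing the data, and the names may differ from those of the study. Doublets were kept. Scrublet's own threshold marked few cells, so the cells of highest score were left out as an alternative, at 0.8% per 1000 cells.

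UMIs were summed per mouse and class, since the mouse and not the cell is the replicate, and tested with edgeR 4.0.16 (TMM, quasi-likelihood, Benjamini-Hochberg over all genes tested in a contrast, calls under 0.05, classes with at least 20 cells per mouse). The study's test over cells was not used. The sums of 1 mouse share a library and pair by animal: their deviations correlated at 0.12 to 0.307 across genes for the stromal and endothelial pairs. For the tdTomato-positive and tdTomato-negative sums the correlation was higher, at 0.566, and the test without the block leaves this pairing out. On simulated data with 2 mice per class, the preosteoblast-like against reticular-like contrast recovered 64% of genes changed by 1 on the log2 scale. The simulated sums were drawn independently, with the same assumed spread for every gene and no effect of the mouse. Only genes above a minimum level were changed, so this share does not give the power for the members. Poisson and Wilson intervals and the floor of 3 counts cover counting error only. Genes named from the lists were at most 4 called genes of largest change per list plus Pth, Pthlh and Itgb1. Tnfsf11 and Gsk3b were named after their values were seen. Levels of different genes were not compared, apart from the counts of Clec11a UMIs per Pth1r UMI.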

Additional observations from a re-analysis of the deposited data

How the results depend on the processing

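Of 126 tested differences of the members under other settings, 120 kept their direction and side of the threshold, and 34 of 38 gene counts stayed within 1.5 times. All 30 values without 1 mouse, which carry no test, moved by less than the SD between mice. With 2 mice, each of these is the value of the other mouse. This outcome was therefore nearly fixed in advance and does not measure stability. With only the tested classes in the fit, Itga11 passed in preosteoblast-like against reticular-like cells (0.55) and in periosteal-like against reticular-like cells (0.83), and 3759 and 2776 genes were called in place of 1903 and 1794. Without the low-count filter Itga11 passed in periosteal-like against reticular-like cells (0.67). The Pth1r call of periosteal-like against preosteoblast-like cells was lost with DESeq2 (-1.66) and without the cells of highest doublet score (-1.78). At a stricter tdTomato threshold Pth1r changed sign (0.01) and 1 gene was called in place of 0, and with the mouse as a replicate block 604 genes were called. Among blood classes, the Clec11a difference of granulocyte progenitor-like against monocyte-like cells changed sign at the finer clustering (0.91), and its adjusted p ran from 1.53e-05 to 0.665 over the alternatives. The causes were not tested. The block ended none of the calls made without it in the stromal, endothelial and tdTomato contrasts of the members. Leaving out either mouse gave values with no test, and no called difference of the members in these contrasts changed sign.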
